A study of Saccharomyces cerevisiae with 6 samples.

Results

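The genes that encode the proteins of the large subunit of the cytosolic ribosome of budding yeast, Saccharomyces cerevisiae, were followed in strains that differ at ASK10, the gene of a regulator of the glycerol channel Fps1. Members were all genes with the symbol RPL and a number, with or without the copy letter A or B, plus the stalk genes RPP0, RPP1A, RPP1B, RPP2A and RPP2B. The reference gene table holds 81 such genes, and 74 of them had a row among the 6032 genes listed. RPL1A, RPL4A, RPL4B, RPL11A, RPL15B, RPL41A and RPL41B were not analysed here. For 28 proteins both gene copies had a row, and summing those copies gave 46 units for the 74 genes.

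The strains carried wild-type ASK10 (WT), a deletion of ask10 (deletion), or the ASK10 allele M475R (M475R). All were grown in synthetic medium without uracil that held 20 g/l glucose. RNA was sequenced from fragmented mRNA, and 5 libraries were used. Both replicates of WT and of M475R entered, with replicate 2 of the deletion, while deletion replicate 1 was not analysed here. The labels do not give the parent strain, the promoter or plasmid that carried each allele, or whether the replicates were grown as separate cultures. The p-values therefore reflect a spread between libraries that may be purely technical.

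Ribosomal protein genes are among the most highly transcribed in growing yeast, and the cell makes the proteins of both subunits together with ribosomal RNA. The large subunit joins amino acids at its peptidyl transferase centre, passes the growing chain through a tunnel, and recruits translation factors through a flexible stalk of acidic P proteins. Most of its proteins are encoded by a pair of nearly identical gene copies left from an ancient genome duplication, called A and B, and the copies of a pair usually make the same or almost the same protein.

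Total expected counts per library lay between 51576 and 117680, except for M475R replicate 1, which reached 4155203. ASK10 had 5 and 7 counts in WT, 0 in the deletion, and 567 (replicate 1) and 4 counts in M475R. The libraries of WT differed by no more than sampling noise over 2001 genes (chi-square per degree of freedom 1.005, p = 0.436), as did those of M475R over 2876 genes (1.025, p = 0.168). Over the 74 members alone the chi-square per gene was higher, 1.247 for WT and 1.241 for M475R. On the values over all genes, each pair of libraries was treated as 1 sample in describing levels, with a value per library and no mean ± SD. The fit kept the libraries apart, as the design lays down, with 2 residual degrees of freedom, and its p-values hold between libraries, not between strains. Ratios come from pooled counts with exact 95% intervals that cover counting error only. Of the listed genes, 2909 passed the filter on low counts, and all 74 members were among them. M475R replicate 1 supplied most M475R counts, so pooled M475R values largely describe that library.

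The members were at the top of the expression range in every library. Their median level per gene length was 3418 and 3270 FPKM (fragments scaled to gene length and library depth) in WT replicates 1 and 2, 3336 FPKM in the deletion, and 2419 and 2337 FPKM in M475R replicates 1 and 2. Over all listed genes the median lay between 45.7 and 53.0 FPKM. In M475R replicate 1, the deepest library, 70 of the 74 members were among the 200 genes with the highest FPKM.

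RPL10, whose protein joins the subunit late in the cytoplasm, had the highest level of any member there, 6892 FPKM. RPL28 (5123 FPKM) and RPL25 (4954 FPKM) came next, and each stands alone, with no second copy. The lowest levels belonged to minor copies of pairs, RPL22B at 394 FPKM, RPL18B at 451 FPKM, RPL7B at 735 FPKM and RPL43B at 1136 FPKM. RPL7A, the partner of RPL7B, had 3062 FPKM, and RPL22A, the partner of RPL22B, had 2353 FPKM. Summed over both copies, levels spread less across 39 proteins with every copy measured. RPP1A, RPP1B, RPP2A and RPP2B, at 1888 (RPP2A) to 2974 FPKM (RPP2B), were left out of these 39. The levels of the 39 ran from 1455 FPKM (RPL39) to 7274 FPKM (RPL42), with a median of 4521 FPKM and quartiles of 3919 and 4954 FPKM. Their Spearman correlation with coding length across these 39 proteins was 0.065, a description over genes of 1 library.

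Most large subunit genes had a lower level in M475R than in the WT libraries. Of 74 members 59 were called lower and 0 higher by edgeR's quasi-likelihood test with Benjamini-Hochberg adjustment over all 2909 genes at 0.05. Of all tested genes, 10.1% were called lower and 8.46% higher. At an unadjusted p under 0.05 the member counts were 66 lower and 0 higher, for which the share of all genes was not computed. DESeq2 called 18 members lower and 0 higher, beside 74 lower and 28 higher of all 2909 tested genes. The median log2 fold change of the members was -0.49 with quartiles of -0.60 and -0.39, beside a median of 0.01 over all tested genes. Both M475R libraries lay below both WT libraries for 67 members and above them for 0, while 26.1% of all tested genes had both M475R libraries below both WT libraries.

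Together the members held 11.8% and 11.4% of all counts in WT replicates 1 and 2, 10.9% in the deletion library, and 8.45% and 8.41% in M475R replicates 1 and 2. Pooled over all 74 genes, the level in M475R was 0.715 times that in WT (95% interval 0.704 to 0.726). That interval does not cover the choice of scaling. The members' median log2 fold change was -0.44 with total counts and -0.54 with TMM from genes without ribosomal proteins, beside -0.49 here. The interval of the single gene contained the common ratio of 0.715 for 59 of the 74 members. For the other 15 it did not, with ratios from 0.503 (RPL9A) to 0.941 (RPL7B). Both of these are copies of pairs with reads divided between the copies, which the intervals do not cover. As sums, RPL7 stood at 0.749 (0.687 to 0.820) and RPL9 at 0.612 (0.551 to 0.681). RPL22B, a nonessential minor copy with 17 WT counts in all, was the single member with a ratio above 1 (1.10, 0.681 to 1.91, adjusted p = 0.841). In these bulk cultures, fewer cells of a kind and less RNA per cell cannot be told apart.

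**Figure D1:**
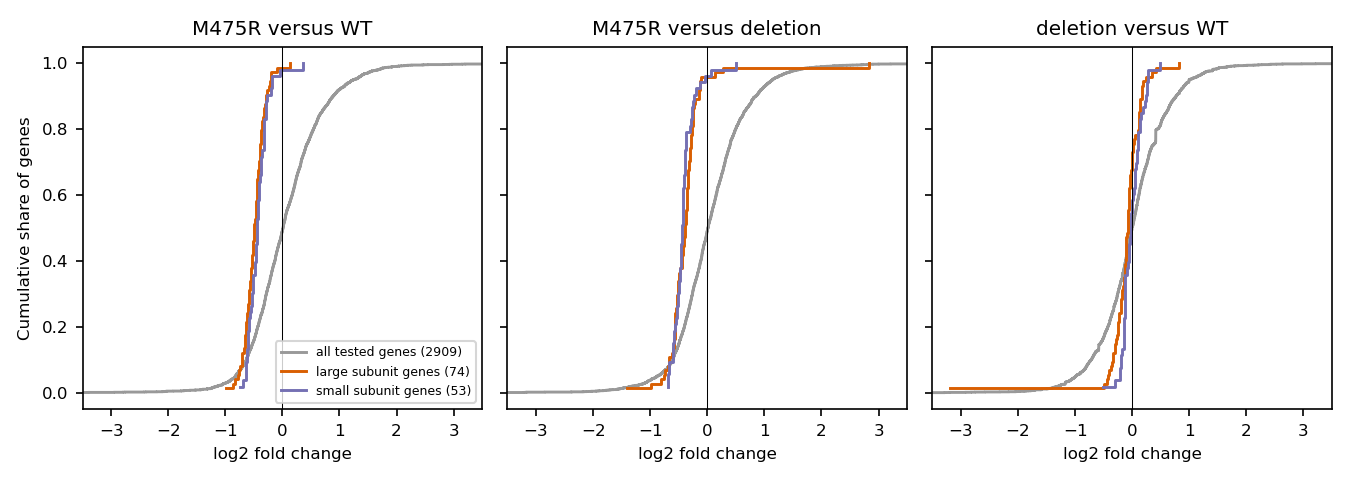
Cumulative share of genes (vertical axis, from 0 to 1) by log2 fold change from edgeR (horizontal axis) in each of the 3 comparisons, for the 74 large subunit members, the small subunit protein genes and all 2909 tested genes. In M475R versus WT the large subunit curve lies left of that of all genes, with a median of -0.49 against 0.01, and in deletion versus WT the curves have medians of -0.08 and -0.002.

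Of the 59 called members, 13 kept their calls when each library in turn was left out. The called count was 28 without WT replicate 1 and 19 without M475R replicate 1, and with a biological coefficient of variation fixed at 20% in place of the fitted 3.18% it was 0.

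Of 7 genes at the peptidyl transferase centre and the tRNA sites, 6 were called lower in M475R. Their median log2 fold change was -0.40. Beside this, 59 of all 74 members and 10.1% of all tested genes were called lower. RPL3, whose protein reaches into the peptidyl transferase centre, had 7805 and 6992 CPM (counts relative to the TMM-scaled library size) in WT replicates 1 and 2, 7154 CPM in the deletion, and 5485 and 5389 CPM in M475R replicates 1 and 2. Both M475R libraries were below the other 3, and RPL3 stood at 0.728 times WT (0.684 to 0.775, adjusted p = 7.06e-10). It is a single-copy gene with 1054 WT counts, the most of any member, so its ratio has the narrowest interval. RPL10 had 5900 and 5653 CPM in WT, 5536 CPM in the deletion, and 4595 and 5194 CPM in M475R. Here too both M475R libraries were lowest, at 0.792 times WT (0.738 to 0.850, adjusted p = 0.000484). That interval lay above the common ratio of all members, as did that of RPL25, given further on. The gene of this role that was not called was RPL42A (0.881, 0.749 to 1.04). It differs from RPL42B at 6 coding bases, and reads were divided between these copies. As a sum, RPL42 stood at 0.790 (0.712 to 0.879).

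Both measured genes of the proteins that carry the 5S ribosomal RNA into the subunit were called lower in M475R, as were 59 of all 74 members. RPL5 had 4328 and 3507 CPM in WT, 3691 CPM in the deletion, and 2908 and 3041 CPM in M475R, so both M475R libraries were below the other 3 (0.718 times WT, 0.660 to 0.783, adjusted p = 1.72e-06). RPL11B, whose protein enters the subunit together with Rpl5, stood at 0.698 (0.634 to 0.771, adjusted p = 5.73e-07).

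Of 12 genes at the polypeptide tunnel and its exit, 10 were called lower in M475R, beside 59 of all 74 members. The median log2 fold change of these 12 genes was -0.54. RPL25 encodes the exit-site protein that binds the signal recognition particle and other factors that meet the new chain. It had 2659 and 2083 CPM in WT, 2797 CPM in the deletion, and 2021 and 1626 CPM in M475R. Both M475R libraries were again below WT, yet WT replicate 2 and M475R replicate 1 nearly met (0.817 times WT, 0.733 to 0.913, adjusted p = 0.0125). RPL39, the short tunnel-wall protein and the shortest gene measured, had 291 and 170 CPM in WT, 276 CPM in the deletion, and 165 and 211 CPM in M475R. Its M475R replicate 2 lay inside the WT range, and it did not pass (0.663, 0.472 to 0.961, adjusted p = 0.11) on 35 WT counts. RPL35A and RPL35B, which differ at 3 coding bases and share an identical stretch of 302 bases, stood at 0.644 (0.567 to 0.735) and 0.640 (0.541 to 0.762). Their reads were divided between the copies, so these ratios are not 2 separate measurements. As a sum, RPL35 stood at 0.639 (0.578 to 0.709).

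The stalk recruits and activates translation factors, and 5 of its 7 genes were called lower in M475R, beside 59 of all 74 members. The median log2 fold change of the stalk genes was -0.40. RPP0, the anchor of the stalk, had 3370 and 3315 CPM in WT, 3368 CPM in the deletion, and 2619 and 2243 CPM in M475R (0.779 times WT, 0.710 to 0.857, adjusted p = 0.000246). The WT and deletion libraries agree within a narrow band, and both M475R libraries lie below it. RPP2B, an acidic P protein gene, was at 1572 and 1466 CPM in WT, 1351 CPM in the deletion, and 902 and 873 CPM in M475R (0.587, 0.511 to 0.676, adjusted p = 8.42e-08). Its interval lay below the common ratio of 0.715. Its fellow P protein genes had ratios of 0.730 for RPP1B (0.620 to 0.865, called lower), 0.750 for RPP1A (0.622 to 0.911, adjusted p = 0.0556) and 0.783 for RPP2A (0.639 to 0.968, adjusted p = 0.122). RPP1A and RPP2A were thus not called, and the interval of RPP2B overlapped that of each of the other P protein genes. The stalk base genes RPL12A (0.615, 0.529 to 0.720, adjusted p = 6.84e-06) and RPL12B (0.806, 0.703 to 0.929, adjusted p = 0.0479) were both called lower, RPL12B only just.

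**Figure D2:**
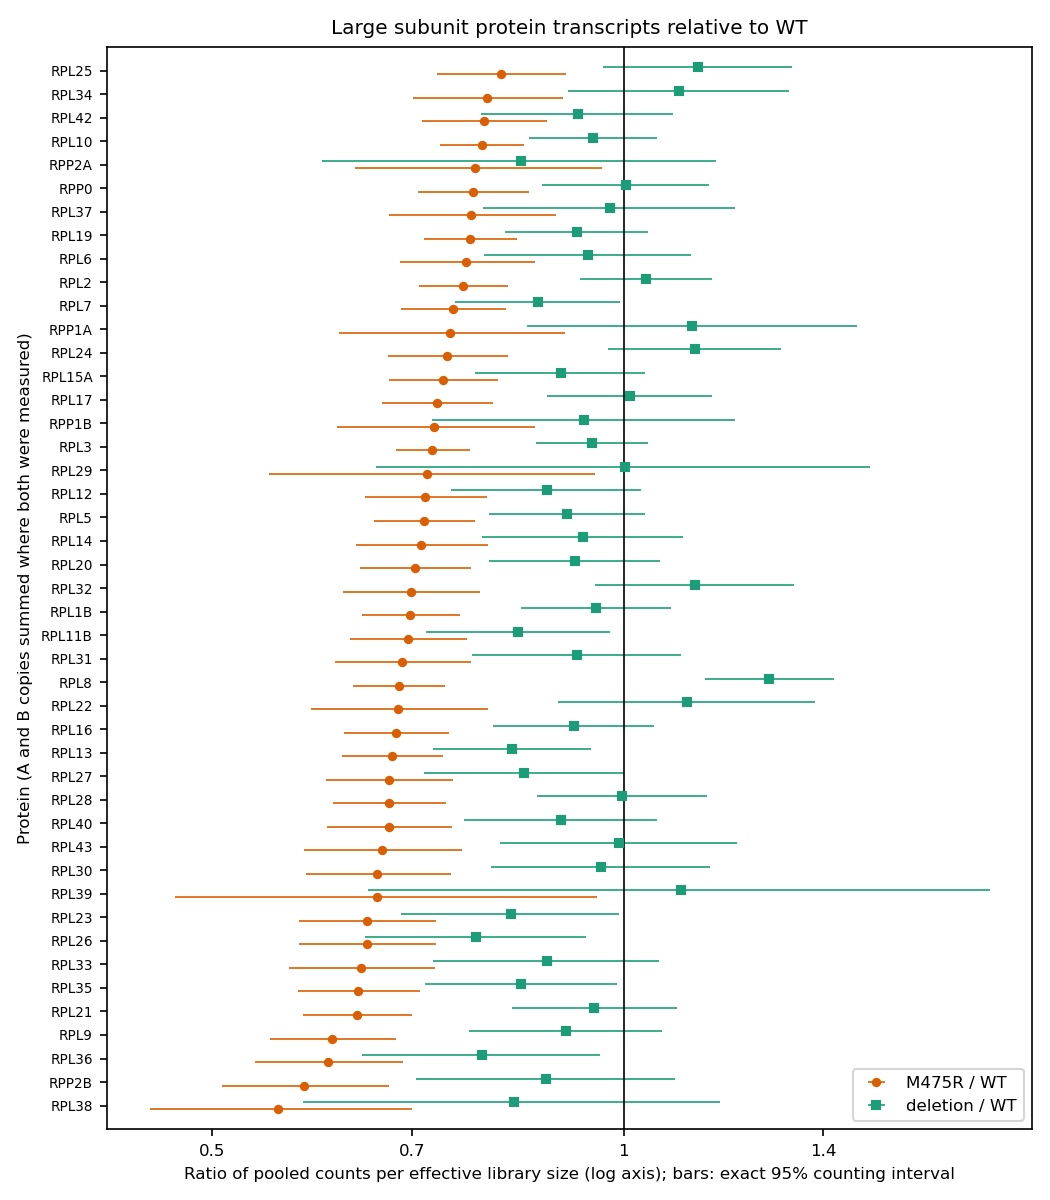
Ratio to WT (horizontal axis, log scale) of M475R (circles) and the deletion (squares), with exact 95% counting intervals, for the protein units (vertical axis), summed over both copies of a pair where both had a row. All drawn ratios of M475R lie below 1, between 0.558 (RPL38) and 0.813 (RPL25), while those of the deletion lie on both sides of 1, with RPL8 highest at 1.28.

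Among the 10 single-copy genes with an RPL symbol, where no partner can share reads, 8 were called lower in M475R and 0 higher. Beside this, 59 of all 74 members and 10.1% of all tested genes were called lower. Ratios of the 10 genes ran from 0.561 to 0.817. At an unadjusted p under 0.05 these counts were 10 and 0. DESeq2 called 4 of the 10 lower and 0 higher, beside 74 lower and 28 higher of all 2909 tested genes. RPL38, a small and nonessential protein of the subunit, had 635 and 616 CPM in WT, 523 CPM in the deletion, and 352 and 407 CPM in M475R (0.561, 0.452 to 0.704, adjusted p = 4.86e-05). Both M475R libraries were clearly lowest, but the call of RPL38 was lost when WT replicate 1 was left out (adjusted p = 0.0843), and likewise for M475R replicate 1 (0.296). RPL28, known for alleles that give cycloheximide resistance, stood at 0.676 (0.615 to 0.745), and RPL30, whose protein represses splicing of its own transcript, at 0.663 (0.588 to 0.751). RPL32 stood at 0.702 (0.626 to 0.789). RPL29, nonessential, had 0.721 (0.553 to 0.959, adjusted p = 0.102) and, like RPL39, was not called.

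Paralog pairs gave the same picture when their copies were summed, which does not depend on how reads were divided between them. In a fit where each pair was 1 row (2881 rows in all, with slightly different scaling), 43 of the 46 units were lower in M475R than in WT, beside 9.86% of all rows lower and 8.26% higher. The others were RPL29, RPL39 and RPP2A, and 0 were higher. Ratios of the units ran from 0.558 to 0.813 with a median of 0.701, and the upper bound was below 1 for all 46. All 28 pair sums had both M475R libraries below both WT libraries. Taken apart, both copies were called lower in 17 pairs, 1 copy in 11 pairs and neither in 0. The 15 uncalled members rested on a median of 108 WT counts against 215 for the 59 called. Among the uncalled, RPL7B, RPL9B, RPL19A, RPL34A and RPL42A had intervals wholly above the common ratio of 0.715. The intervals of the other uncalled members held it. RPL19A had 264 WT counts and a ratio of 0.862 (0.762 to 0.978). All those named but RPL34A belong to pairs with reads divided between the copies.

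The deposited counts show which pairs had reads divided. In 8 pairs all 10 values (both copies in 5 libraries) were fractional, that is, further than 1e-06 from a whole number, and these pairs share identical coding stretches of at least 98 bases. In 16 pairs no value was fractional, and their longest identical stretch was 91 bases at most. The remaining 4 pairs had 2 or 4 fractional values and longest identical stretches from 43 to 114 bases, so the lengths of the stretches overlap between these kinds. RPL8 belongs to the pairs without fractional values, with 95.07% identical coding bases, and RPL9 to those with fractional values throughout, with 93.75% and an identical stretch of 110 bases. RPL2, RPL7, RPL14, RPL19, RPL23, RPL35 and RPL42 also had fractional values throughout. How the reads of these pairs and of RPL9 were divided is not stated by the sources used here, and its effect was not tested.

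Stretches of the coding strand where the copies of these pairs differ are shown, because their counts moved apart and reads over these bases tell the copies apart. They come from RefSeq's S288C sequence (assembly R64), from which the sequenced strains may differ, and capitals mark the 11 of 90 bases that differ between the copies. For RPL8 they are coding bases 409 to 498, and for RPL9 484 to 573.
RPL8A: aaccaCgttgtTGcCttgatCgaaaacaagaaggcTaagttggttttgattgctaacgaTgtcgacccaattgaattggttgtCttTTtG
RPL8B: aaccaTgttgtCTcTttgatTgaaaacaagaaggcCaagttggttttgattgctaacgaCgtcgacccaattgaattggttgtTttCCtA
RPL9A: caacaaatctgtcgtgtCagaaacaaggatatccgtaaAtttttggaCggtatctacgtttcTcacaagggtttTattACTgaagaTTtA
RPL9B: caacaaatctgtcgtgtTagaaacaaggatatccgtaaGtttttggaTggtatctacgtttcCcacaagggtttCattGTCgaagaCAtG

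RPL9A was lower in M475R than in WT by more than its copy. Rpl9 sits near the stalk base and the factor-binding site. RPL9A had 183 and 77 counts in WT replicates 1 and 2 (1970 and 1636 CPM), 194 in the deletion (1846 CPM), and 3581 and 59 in M475R (936 and 888 CPM). Both M475R libraries were far below the other 3, and the ratio of 0.503 (0.444 to 0.573, adjusted p = 3.19e-14) was the lowest of all members. RPL9B had 818 and 765 CPM in WT, 571 CPM in the deletion, and 704 and 482 CPM in M475R. The deletion library lay between the M475R libraries, and RPL9B did not pass (0.875, 0.724 to 1.07, adjusted p = 0.401). RPL9A made up 69.9% of the pair's counts in WT (exact 95% interval 65.0 to 74.5), 76.4% in the deletion (70.7 to 81.5) and 57.2% in M475R (55.9 to 58.4). In the shallower M475R replicate 2 the share was 64.8% (54.1 to 74.6), and its interval overlapped those of both WT libraries. As a sum, RPL9 stood at 0.612 times WT (0.551 to 0.681).

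Besides RPL9, 2 other pairs had shares whose intervals did not overlap between M475R and WT. The A copy of RPL12 gave 45.4% of the pair in WT (40.4 to 50.5) and 38.8% in M475R (37.7 to 39.9). For RPL40, whose genes encode ubiquitin fused to the ribosomal protein, the A copy gave 67.1% (62.1 to 71.9) and 59.5% (58.4 to 60.7). RPL40A was lower at 0.600 (0.528 to 0.684, adjusted p = 3.34e-08), while RPL40B had a ratio of 0.832 (0.694 to 1.00, adjusted p = 0.213). Among WT replicates the RPL12 share itself ranged from 41.7% to 52.6%, and that of RPL40 from 64.8% to 71.9%. M475R replicate 2 gave 42.1% and 64.8%, so for these pairs the libraries of the strains overlap or touch.

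**Figure D3:**
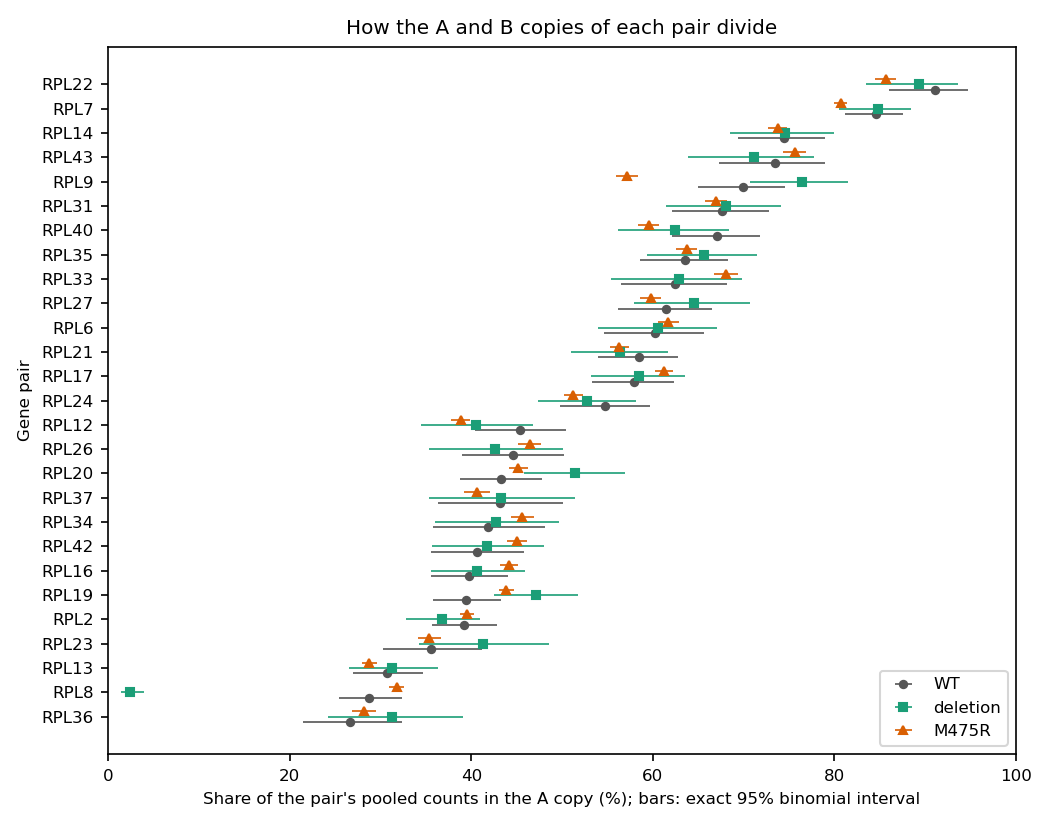
Share of the A copy in a pair's pooled counts (horizontal axis, percent) with exact 95% intervals by gene pair (vertical axis) in WT, the deletion and M475R. RPL8 stands apart in the deletion, at 2.4% against 28.8% in WT, and RPL9 has its lowest share in M475R, 57.2% against 69.9% in WT.

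Further members among the 8 with the largest falls in M475R were RPL33B, RPL36B and RPL43B. RPL33B had 689 and 850 CPM in WT, 647 CPM in the deletion, and 409 and 346 CPM in M475R (0.549, 0.450 to 0.676, adjusted p = 4.1e-06). RPL36B had 1410 and 1424 CPM in WT, 1046 CPM in the deletion, and 850 and 632 CPM in M475R (0.598, 0.518 to 0.694, adjusted p = 2.81e-07). In both genes the deletion library was between WT and M475R. RPL43B, at 345 and 659 CPM in WT, 485 CPM in the deletion, and 278 and 166 CPM in M475R, stood at 0.613 (0.475 to 0.803, adjusted p = 0.00413), with WT libraries that lay far apart. RPL36A was the single called member whose libraries overlapped between WT and M475R (425 CPM in WT replicate 2, 437 CPM in M475R replicate 2).

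In the deletion strain the level of large subunit genes was close to that of WT, with the exception of the RPL8 pair. Of 74 members, 1 was called higher (RPL8B) and 1 lower (RPL8A), beside 0.481% of all tested genes called higher and 0.206% lower. The median log2 fold change was -0.08, and the pooled ratio of deletion to WT was 0.956 (0.934 to 0.978). Of the 74 log2 fold changes, 52 were below 0 and 22 above. Without RPL8A and RPL8B, the other 72 members ran from 0.713 (RPL9B, 0.512 to 0.984) to 1.33 (RPL22B, 0.639 to 2.77). The smallest adjusted p among those 72 was 0.415 (RPL36B), and 64 of their intervals included 1. With 1 deletion library, its spread was assumed to be that of the other strains.

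Rpl8 is an essential protein that binds early in assembly, and either copy can supply it. RPL8A was counted 135 and 61 times in WT replicates 1 and 2 (1453 and 1296 CPM), 16 times in the deletion library (152 CPM), and 4057 and 83 times in M475R (1060 and 1250 CPM). The deletion library was far below all others, at 0.109 times WT (0.0609 to 0.181, log2 fold change -3.20 ± 0.29 SE, adjusted p = 9.17e-24). RPL8B was counted 330 and 155 times in WT (3553 and 3294 CPM), 639 times in the deletion (6079 CPM), and 8739 and 151 times in M475R (2284 and 2273 CPM). Here the deletion library was the highest, at 1.75 times WT (1.56 to 1.98, log2 fold change 0.81 ± 0.10 SE, adjusted p = 4.09e-12). RPL8A thus made up 28.8% of the pair in WT (25.4 to 32.3), 2.4% in the deletion (1.4 to 3.9) and 31.8% in M475R (31.0 to 32.6).

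The sum of both RPL8 copies was 5022 and 4596 CPM in WT, 6238 CPM in the deletion, and 3335 and 3513 CPM in M475R. This sum was called higher in the deletion (1.28 times WT, 1.15 to 1.43, adjusted p = 0.0316), beside 0.451% of all rows called higher and 0.174% lower in the fit of pair sums. The call of the sum was lost in every other setting tried except DESeq2 size factors. In deletion versus WT, RPL8A kept its call in every setting, whereas RPL8B lost it with the coefficient of variation fixed at 20% (adjusted p = 1) and in a fit of WT and deletion alone (adjusted p = 0.0598).

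**Figure D4:**
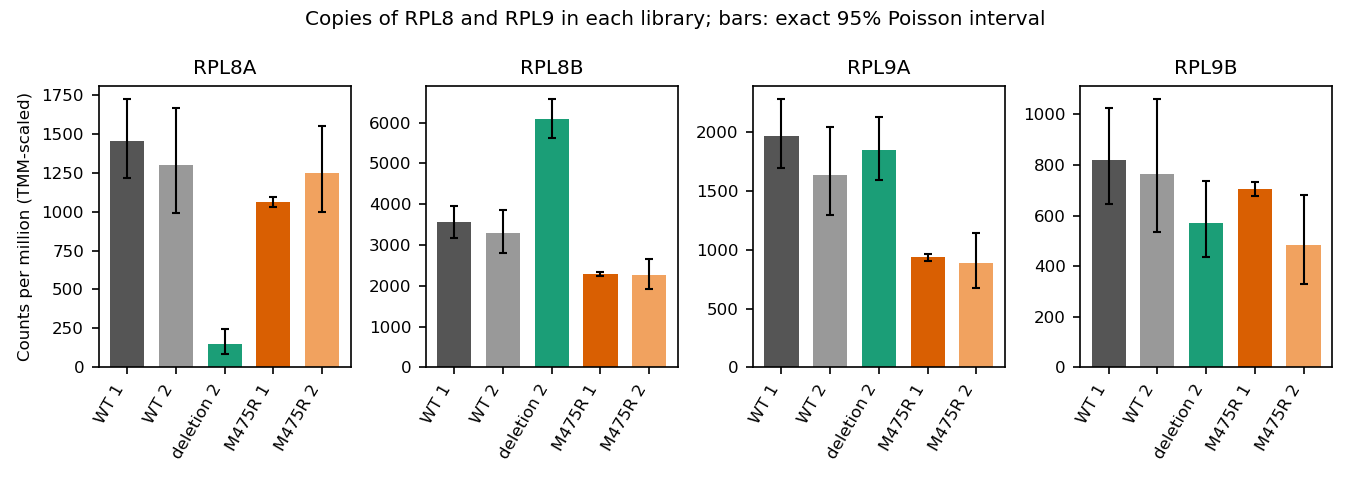
Level in CPM (vertical axis, from 0) of RPL8A, RPL8B, RPL9A and RPL9B in each of the 5 libraries, with exact 95% counting intervals. In the deletion library RPL8A is at 152 CPM and RPL8B at 6079 CPM, and RPL9A is at 936 and 888 CPM in M475R replicates 1 and 2 against 1636 to 1970 CPM elsewhere.

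Genes beside each RPL8 copy were compared in the same contrast, with gene order from R64. RPL8A lies on chromosome VIII, and of the tested genes among the 25 on either side, 1 of 4 before it and 4 of 8 after it had log2 fold changes above 0. Of these 0 were called, higher or lower, by edgeR, and the direct neighbour SBP1 had a ratio of 0.757 (0.478 to 1.18). RPL8B lies on the left arm of chromosome XII, where its neighbours were mostly above WT in the deletion library. All 8 tested genes before it were above 0 with a median log2 fold change of 0.91, and 12 of 16 after it with a median of 0.70. RPL8B itself had 0.81, and the median over all tested genes was -0.002. In windows of the same size, 7 of 12 tested genes before RPL9A and 6 of 12 after it were above 0. For RPL9B these were 4 of 16 and 5 of 12, and 0 genes of the RPL9A and RPL9B windows were called. Near RPL8B, the transporter gene YBT1 (3.90 times WT, 2.49 to 6.27), the succinate dehydrogenase gene SDH2 (3.18, 1.92 to 5.43), VPS13 (2.86, 1.65 to 5.14) and the disaggregase gene HSP104 (2.88, 1.99 to 4.23) were called higher. Of all tested genes, 0.481% were called higher in this contrast and 0.206% lower. FPS1, the channel gene next to RPL8B, had a ratio of 2.17 (1.19 to 4.07, adjusted p = 0.289). Chromosome copy number was not tested, nor was its part in the level of RPL8B.

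**Figure D5:**
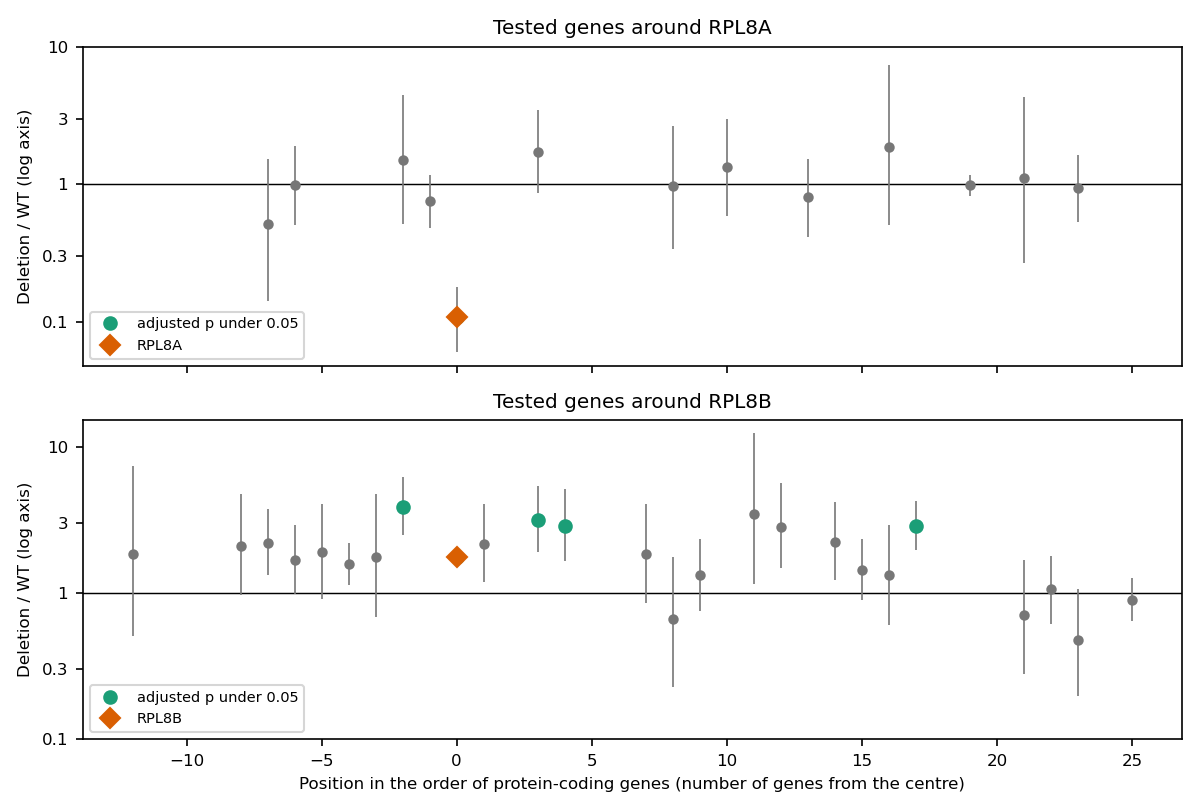
Ratio of deletion to WT (vertical axis, log scale) with exact 95% counting intervals for tested genes, by their distance in genes from RPL8A or RPL8B (horizontal axis), which is drawn as a diamond, with called neighbours in green. Around RPL8B all 8 tested genes before it and most of the 16 after it lie above 1, and around RPL8A the neighbours lie on both sides of 1, all above RPL8A itself at 0.109.

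M475R was also lower than the deletion strain in many members. Of 74 members 34 were called lower and 1 higher, beside 6.19% of all tested genes called lower and 4.09% higher (with scaling by total counts, 145 of all genes were lower and 156 higher, against 180 and 119 with TMM). The median log2 fold change of the members was -0.39, and the pooled ratio was 0.748 (0.735 to 0.762). Among the 10 single-copy genes with an RPL symbol 6 were called lower, with ratios from 0.601 to 0.832. As pair sums, 30 of 46 units were lower and 0 higher, beside 6.56% of all rows lower and 4.1% higher, and DESeq2 called 5 units in all. Both contrasts of M475R use the same M475R libraries, and both contrasts with WT use the same WT libraries, so the comparisons are not separate evidence.

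The member higher in M475R than in the deletion was RPL8A, at 6.99 times (4.30 to 12.2, adjusted p = 1.26e-22), and the deepest fall was that of RPL8B, at 0.376 (0.347 to 0.408, adjusted p = 8.7e-52). Apart from that pair, RPL9A was lowest at 0.507 (0.438 to 0.588, adjusted p = 1.06e-10). RPL22A, the major copy of a nonessential protein, had 1163 and 1381 CPM in WT, 1351 CPM in the deletion, and 798 and 843 CPM in M475R (0.591 times the deletion, 0.5 to 0.705, adjusted p = 4.01e-05). RPL32 had 2142 and 2338 CPM in WT, 2492 CPM in the deletion, and 1549 and 1596 CPM in M475R (0.622 times the deletion, 0.549 to 0.706, adjusted p = 7.32e-07). The deletion library was the highest for RPL32 and within the WT range for RPL22A, and the M475R libraries were the lowest for both.

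RPL24A, one of the last proteins to join in the cytoplasm, stood at 0.642 times the deletion (0.554 to 0.749, adjusted p = 5.88e-05), RPL21A at 0.672 (0.583 to 0.778, adjusted p = 0.000212), RPL33B at 0.631 (0.495 to 0.816, adjusted p = 0.011) and RPL43B at 0.569 (0.429 to 0.769, adjusted p = 0.00531). RPL38 (0.674, 0.515 to 0.899, adjusted p = 0.0717), RPL36B (0.809, 0.669 to 0.987, adjusted p = 0.224) and RPL12A (0.783, 0.645 to 0.961, adjusted p = 0.191), all called against WT, did not pass against the deletion. Without M475R replicate 1 the called members numbered 7, and without M475R replicate 2 they numbered 23. RPL8A, RPL8B, RPL9A, RPL21A, RPL24A, RPL25 and RPL43B kept their calls when each library in turn was left out.

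Genes that act with the large subunit proteins were examined as lists. Of 53 small subunit protein genes 37 were lower in M475R than in WT and 0 higher, beside 10.1% and 8.46% of all tested genes. At an unadjusted p under 0.05, 39 were lower and 1 higher. DESeq2 called 12 of the 53 lower and 0 higher, beside 74 lower and 28 higher of all 2909 tested genes. The small subunit genes had a median log2 fold change of -0.45, led by RPS10A (0.601, 0.513 to 0.709), RPS20 (0.621) and RPS19B (0.647). Against the deletion 27 were lower by edgeR and 3 by DESeq2, beside 6.19% of all tested genes, led by RPS7A (0.630), RPS30B (0.621) and RPS20 (0.630). Among 66 tested assembly factors of the large subunit, 16 were lower in M475R than in WT and 0 higher (31 and 0 at an unadjusted p under 0.05). Their median log2 fold change was -0.53 in M475R versus WT and -0.23 in M475R versus deletion. In deletion versus WT it was -0.26, beside -0.08 for the large subunit members. These factors are less abundant and rest on few counts. RRP14, which acts early in rRNA processing, had 31 and 17 counts in WT, 26 in the deletion, and 604 and 7 in M475R (0.458, 0.341 to 0.627). RLP24, a placeholder for Rpl24 (0.483, 0.357 to 0.670), and the export adaptor gene NMD3 (0.518, 0.397 to 0.686) followed. DESeq2 called 0 of these assembly factors.

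Of 11 tested chaperones and escorts that each serve a given large subunit protein, 1 was lower, ACL4, the chaperone of Rpl4, with 20 and 14 counts in WT, 10 in the deletion, and 505 and 12 in M475R (0.547, 0.386 to 0.798, adjusted p = 0.0127). That share is near the 10.1% of all tested genes called lower, and DESeq2 called 0 of the list. Of 23 tested regulators of ribosomal protein genes, TOR2 was called higher on 4 WT counts (4.03, 1.56 to 14.8) and 0 were lower (0 also at an unadjusted p under 0.05), with a median log2 fold change of -0.15. This count of 1 lies below the 8.46% of all tested genes called higher, and DESeq2 called 0 regulators. Against the deletion, edgeR called 0 genes of the assembly, chaperone and regulator lists. At an unadjusted p under 0.05 there were 2 higher and 8 lower assembly factors, 0 and 2 chaperones, and 0 and 1 regulators, and DESeq2 called 0 in each.

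The general regulator Rap1 binds many ribosomal protein promoters, and its core motif CACCCNNACA was searched on both strands of the 500 bases upstream of each coding start in R64. It was found for 17 of 74 members (23.0%), 11 of 53 small subunit genes (20.8%) and 133 of 6006 coding genes (2.21%). In M475R versus WT the median log2 fold change was -0.49 for the 17 members with the motif and -0.50 for the 57 without it. Rap1 binding was not measured, so a split by this exact string cannot separate bound from unbound members. Across the 74 members the log2 fold change had a Spearman correlation of 0.018 with FPKM and 0.24 with coding length, descriptions over genes that share libraries.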

How the data were processed

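RNA-seq of 6 labelled samples was available as pairwise tables of which 5 libraries had columns. Per the file headers, the authors deposited an expected count and an FPKM for each gene and library. The submitters' processing notes name BWA and Bowtie, without versions, and neither the genome build and annotation nor the counting tool is given in the sources used here. Identifiers carry CEN.PK113-7D, and locus tags were matched to R64 (5515 of 6032) for names, gene order and coding sequence only. All 74 deposited member lengths equal the R64 coding length.

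Expected counts were rounded and fitted for all genes in R 4.3.3 with the quasi-likelihood test of edgeR 4.0.16, TMM scaling, filterByExpr and Benjamini-Hochberg adjustment, calling genes under 0.05. The design was 1 fit of 5 libraries with 3 groups (2 residual degrees of freedom, common dispersion 0.00101, infinite prior degrees of freedom), and pair sums were fitted likewise over 2881 rows. The fitted spread was shared by all genes and carries little beyond counting error, so p-values compare libraries and not strains. Each SE of a log2 fold change was derived as its absolute value divided by the square root of the test's F statistic. For the deletion it holds no spread between deletion libraries. The fit was tested on simulated data. Each ratio divides pooled counts by the TMM-scaled depth of the libraries, with an exact conditional binomial interval (SciPy 1.17.1). DESeq2 1.42.0, other scalings, no filter, a fixed spread, a replicate block and leaving out each library were alternatives.

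Members and gene lists were chosen with earlier results of these data known. Named were called members with the largest changes (8 per contrast and direction), single-copy and stalk genes, pairs whose copies differed by over 0.5 in log2 fold change with at least 20 pooled counts per copy and strain, the 4 highest and 4 lowest levels, genes without a row, and the 3 leading called genes of each other list. RPL19A, RPL22B, RPL34A, RPL35A, RPL35B, RPL36A, RPL42A, RPL40B, RPL11B, RPL7A and the neighbours of RPL8A and RPL8B were named after their values were seen. A further item that the rule names is not reported here, and its pair is left out of the figures by pair or protein. The authors' deposited fold changes and filtered lists (6 files) were not used.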

Additional observations from a re-analysis of the deposited data

How the results depend on the processing

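Medians of the members stayed below 0 in all 3 comparisons under every alternative. In 0 cases did a called member change sign, or an uncalled member become called in the opposite direction. Changes of sign in members that stayed uncalled were not counted. The number of members called in M475R versus WT (59) was 18 with DESeq2's test and 0 with a biological coefficient of variation fixed at 20%, and 19 to 53 when a library was left out. In M475R versus deletion (35) the numbers were 5, 2 and 7 to 38. In deletion versus WT (2) the number was 1 with the fixed coefficient and 1 in a fit of those strains alone, and 2 without each library. For pair sums, M475R versus WT (43) gave 27, 0 and 22 to 43, and M475R versus deletion (30) gave 5, 0 and 6 to 33. In deletion versus WT the RPL8 sum (1) was not called (0) with total counts, TMM from genes without ribosomal proteins, no filter, DESeq2's test, the fixed coefficient, those strains alone, or without each library (0 to 0). The cause was not tested, except that leaving out a library removes counts by construction.

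The labels do not say whether replicate numbers pair the samples. Differences between replicates 1 and 2 in WT and M475R had a correlation of -0.027 over 2909 genes and 0.0058 over 669 better counted genes. These correlations cannot decide on pairing, because over all genes the replicates differed by no more than sampling noise. With a replicate block the calls were 58, 24 and 2 for the members and 42, 21 and 0 for pair sums. Depth limits the shallow libraries, where 3 counts correspond to 28.5 to 63.8 CPM.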
